A study of Homo sapiens with 24 samples.

Results

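The expression of 9 genes of deoxynucleotide metabolism was followed in B-cell lymphoma cells exposed to inhibitors of the kinase SYK and of BET proteins. The genes were RRM1, RRM2, RRM2B, TYMS, DUT, DTYMK, TK1, DCTPP1 and SAMHD1, taken by their symbols from a table of 25161 gene symbols on 25575 rows, with the row of the highest mean where a symbol had several. Only RRM2 had several, namely 2. All 9 were measured on all 24 arrays. SU-DHL-4, an established diffuse large B-cell lymphoma (DLBCL) line, and DG-75, an established Burkitt lymphoma line, were kept for 72 h with DMSO as the solvent control, with Entospletinib at 1 µM (Ento), with AZD5153 at 0.01 µM (AZD) or with both agents at these doses (Ento+AZD). Ento is an inhibitor of SYK, a kinase that relays B-cell receptor signals, and AZD is a bivalent inhibitor of BET proteins, which read acetylated chromatin. Each of the 8 groups held 3 arrays, described as biological triplicates in the labels. Each condition rests on 1 cell line per lymphoma type and on 1 dose and 1 time. RNA was hybridised to Clariom D arrays, and all levels below are deposited log2 values, on which a difference of 1 is a change by a factor of 2.

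DNA synthesis needs balanced pools of the 4 deoxynucleoside triphosphates (dNTPs). Ribonucleotide reductase makes deoxyribonucleotides from ribonucleotides. RRM1 is its large, catalytic subunit, and RRM2 is the small subunit used in S phase, whereas RRM2B is a p53-inducible alternative small subunit that serves cells outside S phase. Thymidylate synthase (TYMS) methylates dUMP to dTMP with a folate cofactor. DUT hydrolyses dUTP, which keeps uracil out of DNA and supplies dUMP, and DTYMK phosphorylates dTMP to dTDP. TK1 salvages thymidine in the cytosol of cycling cells, DCTPP1 hydrolyses dCTP and modified cytosine nucleotides, and SAMHD1 hydrolyses dNTPs and is best known for limiting them in resting and myeloid cells. In lymphoma care this pathway is a drug target, and cytarabine acts on DNA synthesis after its activation by deoxycytidine kinase (DCK).

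Array medians lay between 4.89 and 5.14, and over all rows the correlation between arrays of 1 group was 0.981 to 0.992. All 8 B-cell markers and all 5 germinal centre markers checked had line means above the median row mean of the same line, in both lines. In each line 2 of 5 T and NK cell markers and 2 of 4 monocyte markers did. Of 5 epithelium and fibroblast markers, 3 did in SU-DHL-4 (COL1A1, COL1A2 and DCN) and 2 in DG-75 (COL1A1 and COL1A2), with DCN at a mean of 9.14 and 4.93 in the 2 lines and EPCAM at 2.63 and 2.29. In SU-DHL-4, the arrays numbered 2 of Ento, AZD and Ento+AZD were the lowest of their groups in 6 of the 9 genes (TYMS, RRM1, RRM2, TK1, DUT and DTYMK), and the DMSO array numbered 2 lay within or near the range of its group. The mean log2 level of 18 proliferation and S phase markers, among them MKI67 and PCNA, showed the same: it was 7.89, 6.81 and 8.18 on the Ento+AZD arrays 1, 2 and 3 against 8.56, 8.70 and 9.13 under DMSO. The main differences that involve SU-DHL-4 are therefore also given without these arrays.

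**Figure D1:**
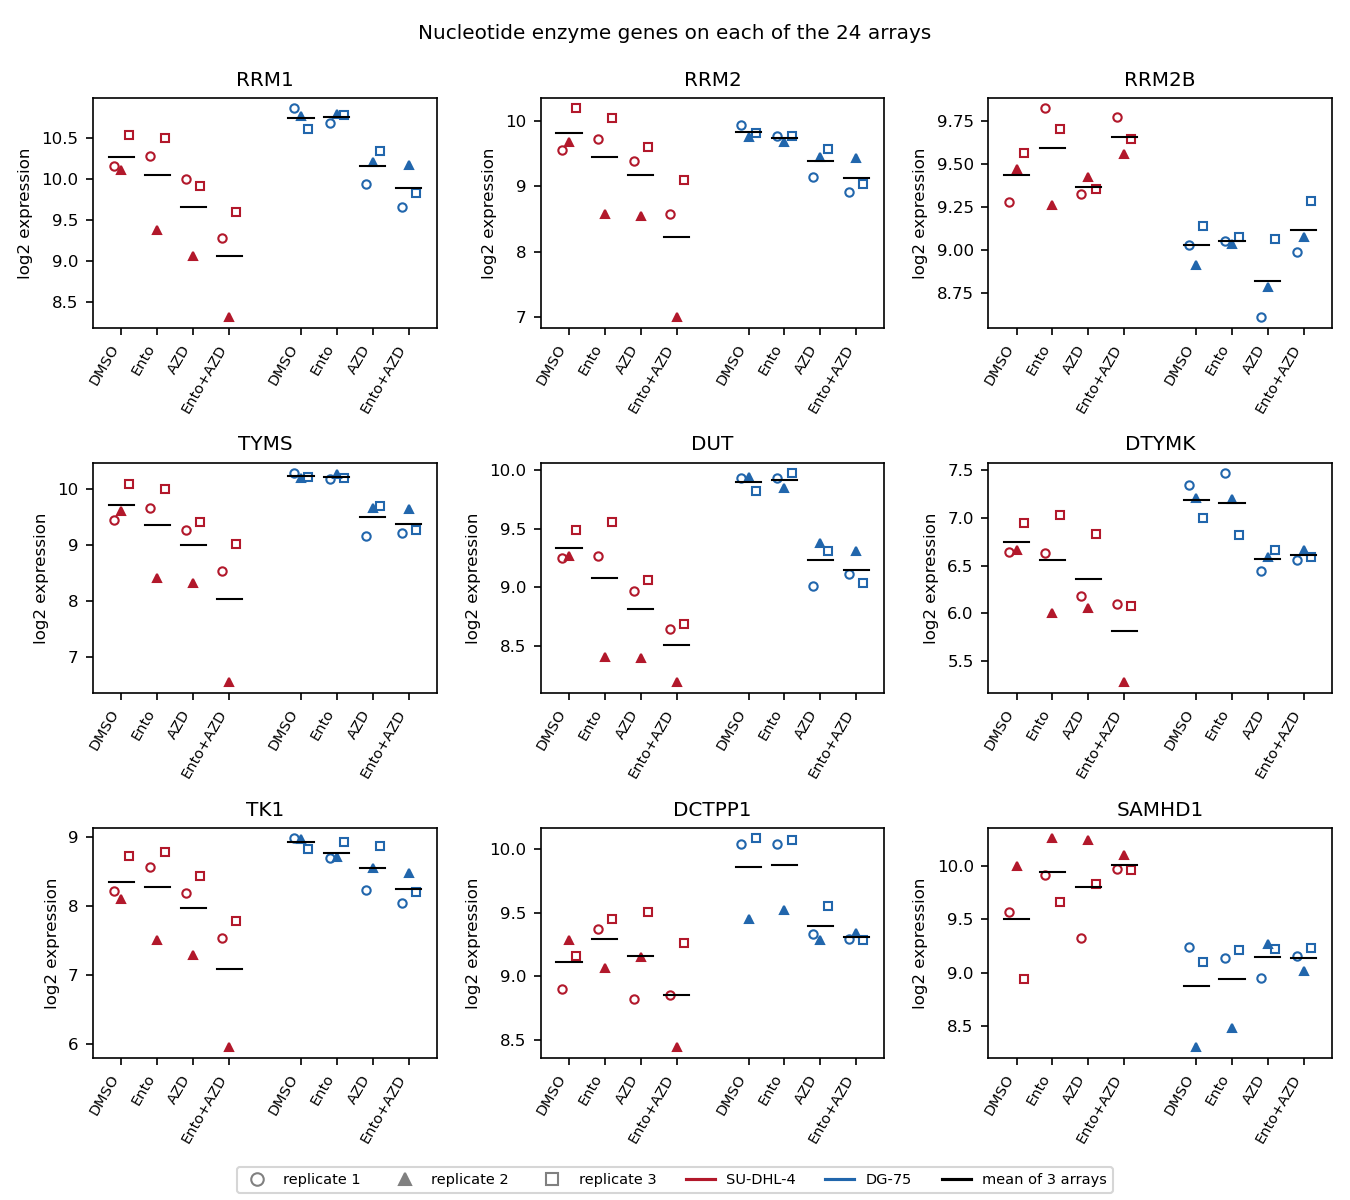
Log2 expression of the 9 genes on each array, with 1 panel per gene, the 4 treatments of SU-DHL-4 on the left in red and those of DG-75 on the right in blue. Symbols mark the replicate number and black bars the mean of 3 arrays, and the filled triangle of SU-DHL-4 Ento+AZD is the lowest point of the TYMS panel, at 6.55.

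In SU-DHL-4, simultaneous Ento+AZD exposure lowered 4 of the 9 genes by more than 2-fold against DMSO: TYMS, RRM2, TK1 and RRM1. Calling required both an adjusted p below 0.05 (limma, Benjamini-Hochberg over all 25575 rows) and a log2 fold change beyond 1 in size. DTYMK and DUT also fell at an adjusted p under 0.05, by less than 2-fold, and DCTPP1, RRM2B and SAMHD1 did not pass. Of all rows, 1.09% were called lower in this comparison and 2.06% were lower at an adjusted p under 0.05. The median log2 fold change was -0.94 over the 9 genes and -0.08 over all rows. Fewer cells in S phase and less RNA of these genes per cell cannot be told apart in RNA from whole cultures.

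Of the ribonucleotide reductase subunits, RRM1 measured 10.16, 10.11 and 10.55 on the 3 DMSO arrays and 9.28, 8.31 and 9.60 on the 3 Ento+AZD arrays. The groups did not overlap. RRM1 fell by 1.21 (SE 0.19, adjusted p = 0.00845), and RRM2 fell by 1.58 (SE 0.27, adjusted p = 0.0119), a 3-fold change. RRM2 measured 9.55, 9.69 and 10.19 under DMSO and 8.58, 7.0 and 9.10 under Ento+AZD, so that the highest exposed array stayed below the lowest control array. RRM2B, the small subunit used outside S phase, showed 9.28, 9.47 and 9.57 under DMSO and 9.78, 9.56 and 9.65 under Ento+AZD. These groups overlapped, with a difference of 0.22 (95% interval -0.13 to 0.58, adjusted p = 0.62). The dimmer row of RRM2, with a mean of 5.94 against 9.34 for the row used, differed by -0.24 (adjusted p = 0.606) in the same comparison, so the 2 rows of this gene gave different values in SU-DHL-4.

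Along the route to dTTP, TYMS had the largest difference of the 9 genes with all arrays. RRM2 lay lower without the Ento+AZD array 2 (-1.24 against -1.22) and without all arrays numbered 2 (-1.03 against -0.98). TYMS measured 9.44, 9.60 and 10.08 under DMSO and 8.53, 6.55 and 9.02 under Ento+AZD, and fell by 1.67 (SE 0.32, adjusted p = 0.0178). The exposed arrays lay below every control array, and array 2 lay furthest down. DTYMK, the kinase that follows TYMS, measured 6.64, 6.67 and 6.94 under DMSO and 6.09, 5.27 and 6.08 under Ento+AZD. DTYMK fell by 0.94 (SE 0.19, adjusted p = 0.0218), just under the 2-fold limit. DUT, which supplies the dUMP that TYMS uses, measured 9.25, 9.27 and 9.49 and then 8.64, 8.19 and 8.69, and fell by 0.83 (SE 0.18, adjusted p = 0.0344). The salvage kinase TK1 measured 8.22, 8.11 and 8.74 under DMSO and 7.54, 5.95 and 7.78 under Ento+AZD, again without overlap. TK1 fell by 1.26 (SE 0.22, adjusted p = 0.0136).

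DCTPP1 and SAMHD1, the hydrolases of dCTP and of dNTPs, did not pass the test in this line. DCTPP1 measured 8.90, 9.28 and 9.16 under DMSO and 8.85, 8.44 and 9.26 under Ento+AZD, with overlapping groups and a difference of -0.26 (95% interval -0.68 to 0.15, adjusted p = 0.615). Without either the DMSO or the Ento+AZD array 2 the difference was -0.07, and without all arrays numbered 2 it was 0.03. SAMHD1 measured 9.57, 9.99 and 8.94 under DMSO and 9.97, 10.09 and 9.96 under Ento+AZD. Its difference of 0.51 (95% interval 0.06 to 0.95) did not pass (adjusted p = 0.282), although it was above 0 in 3 of 3 same-numbered pairs. Without the DMSO array 3 it was 0.28 (adjusted p = 0.717). The control arrays of SAMHD1 spread over more than 1 log2 unit, whereas the exposed arrays lay close together (SD 0.08).

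The size of the SU-DHL-4 result depended on replicate 2. The same-numbered differences between Ento+AZD and DMSO were -0.90, -3.05 and -1.07 for TYMS and -0.97, -2.69 and -1.10 for RRM2. For TK1 they were -0.68, -2.16 and -0.95, and for RRM1 -0.88, -1.8 and -0.95. All pairs showed lower values under Ento+AZD, and pair 2 showed the largest difference of each gene. Without the Ento+AZD array 2, TYMS differed by -1.22 (adjusted p = 0.081), RRM2 by -1.24 (0.0601), TK1 by -0.98 (0.078) and RRM1 by -1.08 (0.0601), and 0 of the 9 genes were called. Likewise 0 were called without the DMSO array 2, without all arrays numbered 2, without all arrays numbered 3, and in a fit without replicate block, where the adjusted p-values of the 4 genes were 0.168 to 0.257 and 45 rows were called in place of 304. DTYMK kept an adjusted p under 0.05 in 2 and DUT in 1 of the 6 fits that left out 1 compared array.

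**Figure D2:**
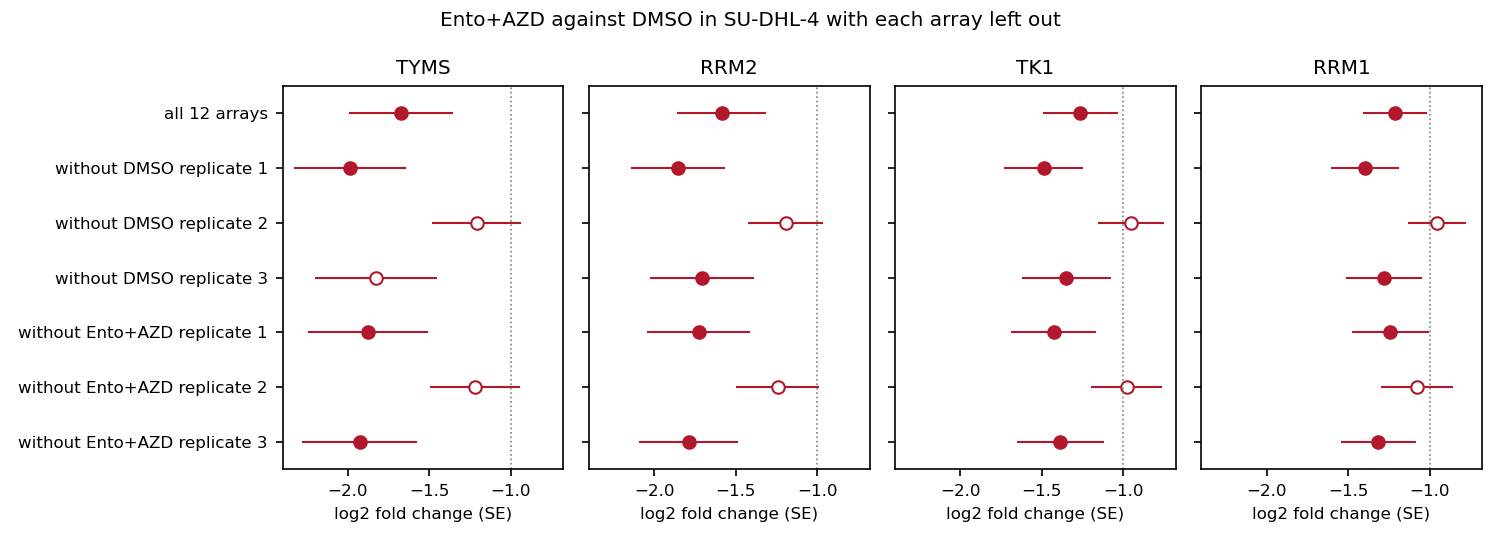
Log2 fold change of TYMS, RRM2, TK1 and RRM1 between Ento+AZD and DMSO in SU-DHL-4 (x axis, bars give the SE) with all 12 arrays of the line and with each compared array left out in turn. Filled points were called and open points were not, and the dotted line marks a fold change of 2: leaving out either array numbered 2 opens the points of all 4 genes, and TYMS also lost its call without DMSO array 3.

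The 4 genes called in SU-DHL-4 moved together, so their promoters are shown here for comparison. Sequences are from RefSeq on the build GRCh38.p14, from 250 bases before to 50 bases after the annotated start, 5′ to 3′ on the strand of the gene. Of the 9 symbols, 8 had an entry in the table of promoters, all but RRM2B. Where a gene had several entries, the one with the most motif matches is shown, so the shares over all windows, which were not chosen in this way, are no fair comparison for RRM2 and TK1. The windows are chr18:657403-657702 on the plus strand for TYMS, chr11:4094435-4094734 on the plus strand for RRM1, chr2:10122489-10122788 on the plus strand for RRM2 and chr17:78187003-78187302 on the minus strand for TK1. Capitals mark matches on either strand to TTTGGCGC, TTTCGCGC, TTTCCCGC or TTTGGCGG (like sites of E2F factors, which drive S phase genes), CCAAT (the NF-Y box) and TTTGAA or TTCGAA (like the CHR element of cell cycle genes).
TYMS: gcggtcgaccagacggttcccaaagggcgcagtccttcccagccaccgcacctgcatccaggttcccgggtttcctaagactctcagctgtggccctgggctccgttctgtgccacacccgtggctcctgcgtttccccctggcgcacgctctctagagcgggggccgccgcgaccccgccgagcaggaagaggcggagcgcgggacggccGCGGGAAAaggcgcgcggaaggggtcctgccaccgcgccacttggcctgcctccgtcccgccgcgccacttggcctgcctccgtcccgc
RRM1: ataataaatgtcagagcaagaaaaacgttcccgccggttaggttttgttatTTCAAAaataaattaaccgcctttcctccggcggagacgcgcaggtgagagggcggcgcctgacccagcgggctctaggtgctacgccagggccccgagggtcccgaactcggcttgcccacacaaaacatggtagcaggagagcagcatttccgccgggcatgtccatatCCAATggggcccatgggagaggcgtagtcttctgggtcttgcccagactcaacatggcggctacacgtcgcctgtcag
RRM2: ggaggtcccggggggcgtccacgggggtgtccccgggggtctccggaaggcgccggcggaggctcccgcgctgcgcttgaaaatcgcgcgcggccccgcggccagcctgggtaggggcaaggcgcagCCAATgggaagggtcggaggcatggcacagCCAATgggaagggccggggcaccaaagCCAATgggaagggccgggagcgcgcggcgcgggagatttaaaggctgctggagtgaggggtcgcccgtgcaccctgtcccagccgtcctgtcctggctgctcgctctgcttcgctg
TK1: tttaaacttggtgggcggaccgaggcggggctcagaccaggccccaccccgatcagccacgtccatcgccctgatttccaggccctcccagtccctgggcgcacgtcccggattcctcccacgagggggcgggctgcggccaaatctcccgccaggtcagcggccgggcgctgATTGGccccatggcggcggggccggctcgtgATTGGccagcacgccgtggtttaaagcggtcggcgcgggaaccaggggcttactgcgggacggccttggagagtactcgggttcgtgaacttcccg
The window of RRM2 held 3 copies of CCAAT, which 3.26% of the 35116 promoter windows of the table did, and that of TK1 held 2, written as ATTGG on the strand shown (10.8% of windows held at least 2). The other of the 2 windows of RRM2 held 1 CCAAT, and the other of the 2 windows of TK1 held no match. RRM1 held 1 CCAAT box and 1 match to TTTGAA. At least 1 CCAAT was present in 34.6% and TTTGAA in 15.2% of windows. TYMS held TTTCCCGC, seen as its reverse complement, which 1.63% of windows held. Of the other genes, DUT had TTTGGCGC, TTTCCCGC and TTTGAA in 1 of its 4 windows, DTYMK had 2 CCAAT boxes and TTCGAA, SAMHD1 had 2 CCAAT boxes, and DCTPP1 had no match. The window of SAMHD1, which did not pass the test, and the window shown for TK1, which did, held the same number of CCAAT boxes. The matches describe letters in these windows, and binding was not measured.

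In DG-75, Ento+AZD exposure lowered RRM1, TYMS and DUT at an adjusted p under 0.05 but by less than 2-fold, so that 0 of the 9 genes were called. Of all rows, 0.708% were called lower and 1.87% were lower at an adjusted p under 0.05. The median log2 fold change was -0.69 over the 9 genes and -0.07 over all rows. TYMS was tightly grouped under DMSO at 10.27, 10.20 and 10.21 and measured 9.20, 9.65 and 9.27 under Ento+AZD. TYMS fell by 0.85 (SE 0.16, adjusted p = 0.0244). RRM1 measured 10.87, 10.77 and 10.62 under DMSO and 9.66, 10.17 and 9.84 under Ento+AZD and fell by 0.86 (SE 0.15, adjusted p = 0.0221). Neither gene overlapped between the groups.

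DUT measured 9.94, 9.95 and 9.82 under DMSO and 9.11, 9.31 and 9.03 under Ento+AZD in DG-75, and fell by 0.75 (SE 0.14, adjusted p = 0.0244). For RRM2 the values were 9.94, 9.75 and 9.82 against 8.91, 9.44 and 9.03, a difference of -0.71 (adjusted p = 0.0511). The dimmer row of RRM2 differed by -0.72 (adjusted p = 0.0363), so that here both rows of the gene lay in the same direction by a like amount. TK1 measured 8.99, 8.99 and 8.84 under DMSO and 8.05, 8.48 and 8.20 under Ento+AZD, a difference of -0.69 (adjusted p = 0.0556) without overlap. DTYMK differed by -0.58 (adjusted p = 0.101). DCTPP1, with 10.04, 9.45 and 10.08 under DMSO and 9.29, 9.34 and 9.29 under Ento+AZD, differed by -0.55 (adjusted p = 0.107). The 7 groups of exposed arrays of TYMS, RRM1, DUT, RRM2, TK1, DTYMK and DCTPP1 all lay below their controls. RRM2B (0.09, 95% interval -0.20 to 0.38) and SAMHD1 (0.26, 95% interval -0.20 to 0.71) overlapped. In this comparison 61.4% of all rows lay below 0. The share of all rows without overlap was not counted, so the separation is no result about these genes in particular. With 1 array left out, RRM1 kept an adjusted p under 0.05 in 1 of 6 cases and TYMS and DUT in 0 of 6. Without replicate block the adjusted p was 0.0171 for RRM1, 0.0195 for TYMS and 0.0172 for DUT, and RRM2 also passed (adjusted p = 0.0363). With all rows under the median row mean left out, RRM2, TK1, DTYMK and DCTPP1 passed as well (adjusted p = 0.0201 to 0.0454). With a prior variance following the level RRM2, TK1 and DCTPP1 did (adjusted p = 0.0054 to 0.0183).

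**Figure D3:**
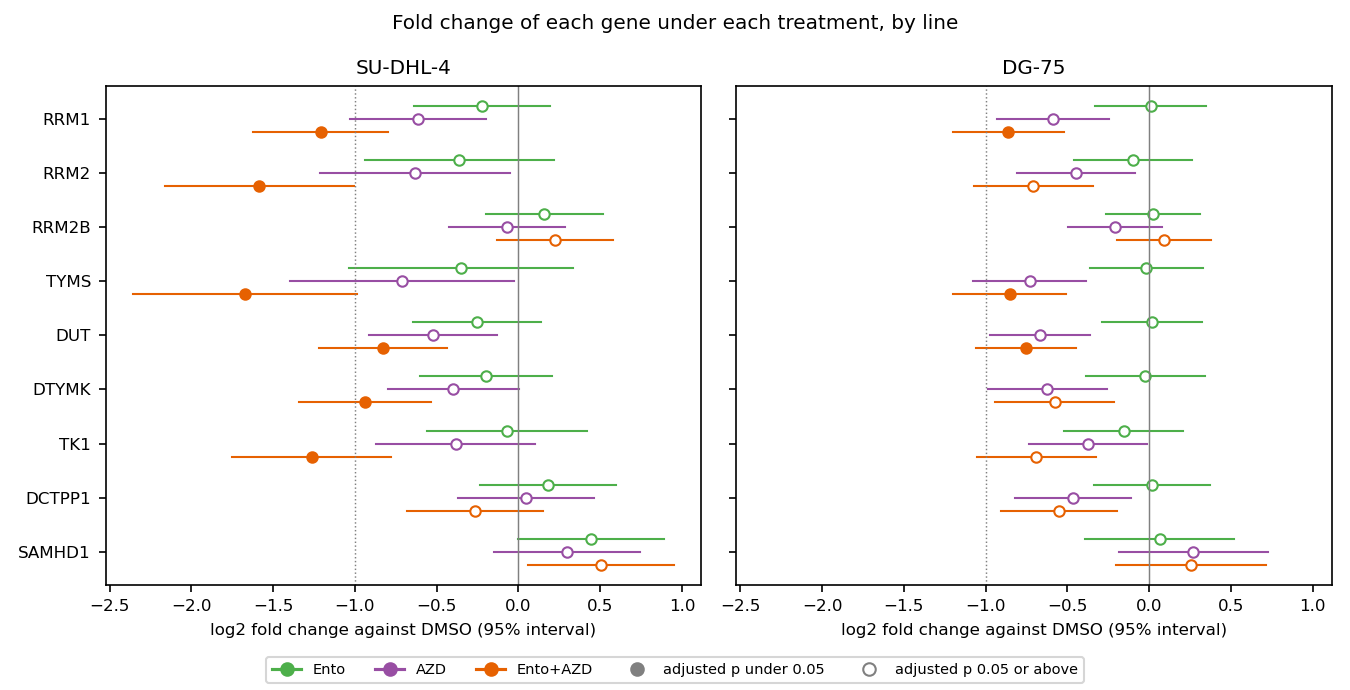
Log2 fold change against DMSO (x axis) of each gene under Ento, AZD and Ento+AZD in SU-DHL-4 (left) and DG-75 (right), with 95% intervals of the limma fit. Filled points had an adjusted p under 0.05: 6 genes of SU-DHL-4 and 3 of DG-75 under Ento+AZD, and none under a single agent, and the dotted line marks a 2-fold lower level.

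Neither single agent led to a call among the 9 genes within a line, where all comparisons with DMSO share the same 3 control arrays. Under Ento alone, SU-DHL-4 had 0 called (0.0508% of all rows were called in either direction) and DG-75 had 0 (0.00391% of all rows). In DG-75 the Ento values were nearly those of DMSO. TYMS measured 10.18, 10.26 and 10.19 under Ento there, a difference of -0.02 (95% interval -0.36 to 0.33), and RRM1 differed by 0.01 (95% interval -0.33 to 0.35). In SU-DHL-4 the intervals under Ento were wider, and the point for TYMS was -0.35 (95% interval -1.04 to 0.33). It rested on array 2, where the same-numbered difference was -1.19, against 0.21 and -0.08 for the others. Without all arrays numbered 2 it was 0.07 (adjusted p = 0.978).

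AZD alone gave differences below 0 in both lines for the 6 genes that fell under Ento+AZD in SU-DHL-4, none past the threshold within a line (0 of 9 called in each, against 0.18% of all rows for SU-DHL-4 and 0.18% for DG-75). Under AZD, TYMS measured 9.26, 8.33 and 9.40 in the DLBCL line and 9.15, 9.65 and 9.69 in the Burkitt line, which gave -0.71 (adjusted p = 0.416) and -0.73 (adjusted p = 0.0742). The groups did not overlap with DMSO in either line. DUT differed by -0.52 (adjusted p = 0.292) and -0.67 (adjusted p = 0.068), and RRM1 by -0.61 (adjusted p = 0.239) and -0.59 (adjusted p = 0.115), again without overlap in either line. Without all arrays numbered 2, the SU-DHL-4 differences became -0.43 for TYMS (adjusted p = 0.380) and -0.39 for RRM1 (adjusted p = 0.418). In DG-75 the adjusted p depended on the fit. With all rows under the median row mean left out it was 0.0290 for TYMS, 0.0473 for RRM1 and 0.0278 for DUT. It was 0.0064, 0.0143 and 0.0055 with a prior variance following the level, and 0.0455 for DUT in 1 fit of all 24 arrays. The smallest unadjusted p of the 9 genes was 0.00735 (RRM1, SU-DHL-4) and 0.000535 (DUT, DG-75). TK1 showed the smallest point of the 6 genes, with -0.38 and -0.37 under AZD in the 2 lines. Over the alternative fits its point ran from -0.61 to -0.07 in SU-DHL-4 and from -0.58 to -0.19 in DG-75. DCTPP1 stood at 0.05 under AZD in SU-DHL-4 and at -0.47 in DG-75, a difference between the lines of 0.51 (95% interval -0.02 to 1.05, adjusted p = 0.825).

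Ento+AZD was also set against each single agent. Against Ento in DG-75, RRM1 fell by 0.87 (adjusted p = 0.0254), TYMS by 0.84 (adjusted p = 0.0286) and DUT by 0.77 (adjusted p = 0.027), by less than 2-fold, so that 0 of 9 were called (0.598% of all rows were called lower and 1.44% were lower at an adjusted p under 0.05). Each adjusted p stayed under 0.05 in 1 of 6 fits that left out an array, and with a prior variance following the level RRM2, TK1 and DCTPP1 passed as well (adjusted p = 0.0146 to 0.0430). Against Ento in SU-DHL-4 the points were larger, with TYMS at -1.32 (adjusted p = 0.127), RRM2 at -1.22 (0.0934), TK1 at -1.20 (0.0749) and RRM1 at -0.99 (0.0765), and 0 were called (0.0821% of all rows). These 4 passed an adjusted p of 0.05 in 1 fit of all 24 arrays (0.0133 to 0.0301) and with a prior variance following the level (0.0067 to 0.0212). The arrays of the 2 groups overlapped because Ento array 2 lay low. Without all arrays numbered 2, the differences were -1.05 for TYMS, -1.05 for RRM2, -1.02 for TK1 and -0.95 for RRM1 (adjusted p = 0.0916 to 0.110), and without the Ento+AZD array 2 alone TYMS stood at -0.87 (adjusted p = 0.490). Against AZD, 0 of 9 were called in SU-DHL-4 (0.0274% of all rows), where TYMS stood at -0.96, RRM2 at -0.95 and TK1 at -0.88 with adjusted p-values of 0.436 to 0.573. Without all arrays numbered 2, these became -0.56, -0.65 and -0.65 (adjusted p = 0.394 to 0.450). The dimmer row of RRM2 lay above 0 in SU-DHL-4, at 0.20 against Ento (adjusted p = 0.802) and 0.13 against AZD (adjusted p = 0.926). Against AZD in DG-75 the points of the 6 genes lay between -0.32 (TK1) and 0.04 (DTYMK), with RRM1 at -0.27, RRM2 at -0.26, TYMS at -0.12 (95% interval -0.47 to 0.22) and DUT at -0.08 (95% interval -0.39 to 0.22). TK1, RRM1 and RRM2 lay below 0 in 3 of 3 same-numbered pairs, without passing. 0 rows of the whole table were called there in the limma fit, and 1030 had an unadjusted p under 0.05. RRM2B differed from AZD by 0.29 in SU-DHL-4 and by 0.30 in DG-75, above 0 in 3 of 3 same-numbered pairs of each line, without passing (adjusted p = 0.774 and 1.00).

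Whether the 2 agents together moved a gene beyond the sum of their single effects was tested as a departure from additivity on the log2 scale. For TK1 in SU-DHL-4 it was -0.81 (95% interval -1.50 to -0.12, unadjusted p = 0.0247, adjusted p = 0.96). TYMS stood at -0.61 (95% interval -1.58 to 0.36) and RRM2 at -0.59 (95% interval -1.41 to 0.23). Single arrays moved these values: without the DMSO array 2 the departure was -1.12 for TK1, -1.07 for TYMS and -0.98 for RRM2 (adjusted p = 0.930 each), and without the Ento+AZD array 2 it was -0.53, -0.15 and -0.25 (adjusted p = 0.994 each). Without all arrays numbered 2 it was -0.85, -0.62 and -0.66 (adjusted p = 0.846 each). With all arrays, the dimmer row of RRM2 departed in the opposite direction, by 0.57 (adjusted p = 0.96). In DG-75 the points of the 9 genes lay between -0.28 and 0.27. No gene of the table was called in either line by limma in this test, with 1276 (SU-DHL-4) and 672 (DG-75) rows at an unadjusted p under 0.05.

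With both lines in 1 additive fit, 6 genes fell under Ento+AZD at an adjusted p under 0.05, and 3 of them by more than 2-fold (0.813% of all rows were called lower and 7.03% were lower at an adjusted p under 0.05). TYMS fell by 1.26 (SE 0.21, adjusted p = 0.000465), RRM2 by 1.15 (SE 0.19, adjusted p = 0.000425) and RRM1 by 1.04 (SE 0.12, adjusted p = 3.4e-05). The dimmer row of RRM2 differed by less, at -0.48 (adjusted p = 0.0386). TK1 fell by 0.98, DUT by 0.79 and DTYMK by 0.76, with adjusted p-values of 0.000152 to 0.000899. These 6 kept an adjusted p under 0.05 in all 12 fits that left out 1 compared array. The other 3 genes did not pass: DCTPP1 differed by -0.41 (adjusted p = 0.0584), SAMHD1 by 0.38 (adjusted p = 0.131) and RRM2B by 0.16 (adjusted p = 0.373). These depended on the fit. DCTPP1 passed in 3 of the 12 fits with an array left out. It also passed with all rows under the median row mean left out (adjusted p = 0.0275) and with a prior variance following the level (adjusted p = 0.0256). After quantile normalization SAMHD1 differed by 0.52 (adjusted p = 0.0237) and RRM2B by 0.29 (adjusted p = 0.0177), and with array medians subtracted SAMHD1 differed by 0.49 (adjusted p = 0.0473). The 2-fold limit was less stable: without either the DMSO or the Ento+AZD array 2 of SU-DHL-4 only TYMS stayed called, and without all arrays numbered 2 none of the 9 did. Under AZD alone, DUT fell by 0.60 (adjusted p = 0.00551), RRM1 by 0.60 (adjusted p = 0.00819), DTYMK by 0.51 (adjusted p = 0.0316) and TYMS by 0.72 (adjusted p = 0.0496). None of these reached 2-fold (0.25% of all rows were called lower and 4.29% were lower at an adjusted p under 0.05). DUT and RRM1 kept an adjusted p under 0.05 in 12 of 12 fits with an array left out, DTYMK in 6 and TYMS in 3. RRM2 (-0.54, adjusted p = 0.107) and TK1 (-0.38, adjusted p = 0.197) did not pass under AZD, although RRM2 did without all arrays numbered 2 (-0.45, adjusted p = 0.0438).

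The response of SU-DHL-4 to Ento+AZD minus that of DG-75 was -0.82 for TYMS (95% interval -1.64 to -0.01) and -0.88 for RRM2 (95% interval -1.59 to -0.17). The test of that difference did not pass for either gene (adjusted p = 0.763 and 0.62), and its size moved with the arrays numbered 2. Without the Ento+AZD array 2 of SU-DHL-4 it was -0.37 for TYMS (adjusted p = 0.889) and -0.53 for RRM2 (adjusted p = 0.803), without its DMSO array 2 it was -0.36 (adjusted p = 0.943) and -0.49 (adjusted p = 0.888), and without all arrays numbered 2 it was 0.02 (adjusted p = 0.997) and -0.13 (adjusted p = 0.963). The dimmer row of RRM2 gave the opposite sign with all arrays, at 0.48 (adjusted p = 0.756). For DUT the 2 lines differed by -0.08 (95% interval -0.55 to 0.39). 0 of 9 genes were called for a difference between the lines, against 0.0352% of all rows.

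Levels in the untreated lines were lower in SU-DHL-4 for 7 of the 9 genes as a point, where 48.3% of all rows were. DCTPP1 was the one that passed an adjusted p of 0.05. Its untreated values, given above, did not overlap, with a difference of -0.75 (SE 0.21, adjusted p = 0.016), and the adjusted p stayed under 0.05 in 3 of 6 fits that left out 1 array. 0 of 9 genes were called (4.11% of all rows were called lower in SU-DHL-4 and 9.84% were lower at an adjusted p under 0.05). TYMS, RRM1, TK1, DTYMK, DUT and RRM2B did not overlap between the lines either, and did not pass. How many of all rows did not overlap between the lines was not counted. Among these genes, RRM2B (0.41, adjusted p = 0.0612) and DUT (-0.57, adjusted p = 0.0827) had the smallest adjusted p. RRM2B passed in 5 of the alternative fits (adjusted p = 0.0074 to 0.0494), and SAMHD1 passed without the SU-DHL-4 DMSO array 3 (0.90, adjusted p = 0.0265). RRM2 was nearly equal on the row used (-0.03, 95% interval -0.83 to 0.78), whereas its dimmer row was lower in SU-DHL-4 (-0.93, adjusted p = 0.000122). The level of RRM2 between the lines therefore depended on the row.

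Over all 8 groups, SU-DHL-4 under Ento+AZD had the lowest mean of the 7 genes other than RRM2B and SAMHD1, and the highest mean of these 2. For DCTPP1 the rank rested on array 2, since without all arrays numbered 2 Ento+AZD lay 0.03 above DMSO. For TYMS the order ran from 10.23 ± 0.04 (SD, n = 3) in DG-75 under DMSO and 10.21 ± 0.04 under Ento to 9.71 ± 0.34 in SU-DHL-4 under DMSO. It went on with 9.5 ± 0.30 in DG-75 under AZD, 9.37 ± 0.24 in DG-75 under Ento+AZD and 9.35 ± 0.84 in SU-DHL-4 under Ento. SU-DHL-4 under AZD (9.0 ± 0.58) and under Ento+AZD (8.03 ± 1.31) came last. Most neighbours in these orders could not be separated: the ranges of 4 of the 63 neighbouring pairs over the 9 genes did not overlap. These were the step below untreated and Ento-exposed DG-75 for TYMS, RRM1 and DUT, and the step between the lines for RRM2B, where every SU-DHL-4 group mean lay above every DG-75 group mean.

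The genes that fell varied together from array to array. After the mean of its line and replicate number was subtracted from each value, the 15 pairs among TYMS, RRM1, RRM2, TK1, DUT and DTYMK correlated at 0.807 to 0.985 over the 24 arrays. DCTPP1 correlated with these 6 at 0.736 to 0.78, RRM2B at -0.131 to 0.103 and SAMHD1 at -0.403 to -0.269. The arrays share treatments and the controls, so these are descriptions without a test. Over all symbols with a row mean at or above the median, TYMS was most like RRM2 (r = 0.985) and the replication clamp PCNA (0.984). RRM2 was most like MKI67 (0.987), which encodes the Ki-67 antigen of cycling cells, and TYMS (0.985), and TK1 was most like RRM2 (0.978) and MKI67 (0.97). RRM1 was most like NUSAP1 (0.985), a spindle protein, and RACGAP1 (0.983), which acts in cytokinesis. RRM2B was most like SLC35E3 (0.838) and NFKB1 (0.833), which encodes an NF-κB precursor. SAMHD1 was most like FAM118B (0.86) and the actin nucleation subunit ARPC4 (0.856).

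Markers of proliferation moved with the genes that fell in both lines. In SU-DHL-4 under Ento+AZD, 12 of the 18 markers were called lower (1.09% of all rows were), with a median log2 fold change of -1.27. All 18 lay below 0, where 64% of all rows did. Those with the smallest adjusted p were CDT1 (-1.40, 0.00567), CCNA2 (-1.57, 0.00779), CDK1 (-1.60, 0.00815) and MKI67 (-1.40, 0.0116), which license origins, drive the cell cycle or mark cycling cells. PCNA fell by 1.26 (adjusted p = 0.0206) and MCM2 by 0.99 (adjusted p = 0.0347). Without replicate block 1 marker was called, without the Ento+AZD array 2 the count was 1 and without the DMSO array 2 it was 0. In DG-75, 5 of 18 were called lower (median -0.85; 0.708% of all rows were called lower), with MCM4, CDK1, MCM6 and CCNA2 the smallest in adjusted p, while MKI67 (-0.78, adjusted p = 0.0403), PCNA (-0.78, adjusted p = 0.0289) and MCM2 (-0.75, adjusted p = 0.0227) fell by less than 2-fold. Without any 1 of the 3 replicate numbers, 0 markers were called in DG-75. The summed level of the list moved likewise: its mean per array ranged from 8.56 to 9.13 under DMSO and from 6.81 to 8.18 under Ento+AZD in SU-DHL-4, and from 9.12 to 9.31 and 8.14 to 8.50 in DG-75. Within lines, RRM2 and MKI67 correlated at 0.994 (SU-DHL-4) and 0.984 (DG-75) after the same subtraction. The part of proliferation in the result for the nucleotide genes was not tested.

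**Figure D4:**
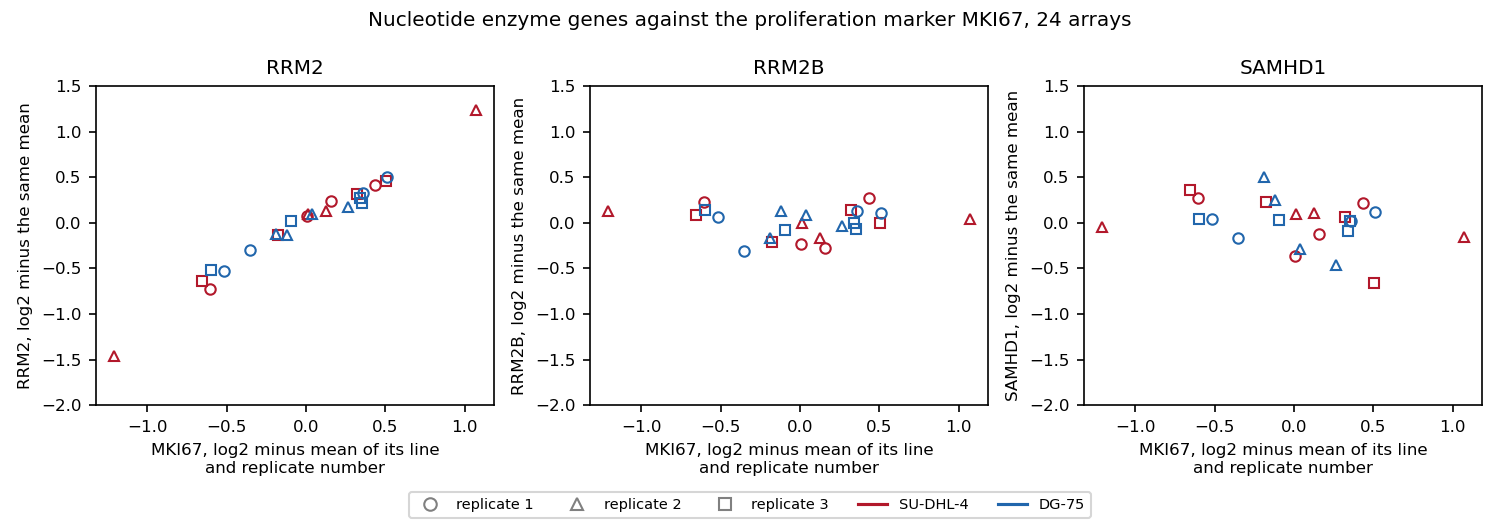
RRM2, RRM2B and SAMHD1 (y axes) against the proliferation marker MKI67 (x axis) on the 24 arrays, each as log2 value minus the mean of its line and replicate number, in red for SU-DHL-4 and blue for DG-75. RRM2 lies along a line (r = 0.987), RRM2B shows no slope (r = -0.0451) and SAMHD1 a loose downward scatter (r = -0.327).

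Of 10 genes of the folate and dTMP cycle, 2 were called lower in SU-DHL-4 under Ento+AZD (median -0.62) and 1 in DG-75 (median -0.51), where 1.09% and 0.708% of all rows were. These were MTHFD1, a folate interconversion enzyme, at -1.08 (adjusted p = 0.0151) in SU-DHL-4, and GGH, which trims folate polyglutamates, at -1.34 (adjusted p = 0.0269) and -1.29 (adjusted p = 0.044) in the 2 lines. In SU-DHL-4 neither was called without replicate block or without either array numbered 2, and in DG-75 GGH was not called without any 1 of the replicate numbers. SHMT1, which makes the folate cofactor of TYMS from serine, differed by -0.47 in both lines (adjusted p = 0.112 and 0.166).

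None of 5 genes of de novo pyrimidine synthesis and none of 13 genes of de novo purine synthesis was called in either direction under Ento+AZD in either line, with medians of -0.15 and -0.28 (SU-DHL-4) and of -0.17 and -0.42 (DG-75). With 1.09% and 0.708% of all rows called lower and 0.102% and 0.125% called higher, counts of 0 in this and the next lists lie near the background and say nothing about the lists. At an adjusted p under 0.05, where 2.06% (SU-DHL-4) and 1.87% (DG-75) of all rows were lower, 2 of the 13 purine genes fell by less than 2-fold in each line: PRPS2, which makes the ribose phosphate donor, by 0.96 (adjusted p = 0.0111) and 0.78 (adjusted p = 0.0251), and GMPS, which makes GMP, by 0.68 (adjusted p = 0.0457) and 0.74 (adjusted p = 0.0244). Of the 19 measured genes of nucleoside salvage, transport and kinases 0 were called (medians -0.25 and -0.22), and 2 in SU-DHL-4 (DCTD and UCK2) and 1 in DG-75 (SLC29A1) had an adjusted p under 0.05. UCK2, a uridine and cytidine kinase, fell by 0.70 (adjusted p = 0.0407) and SLC29A1, a nucleoside transporter, by 0.76 (adjusted p = 0.0318). DCTD, the deaminase that makes dUMP from dCMP, measured 7.67, 7.44 and 7.66 under DMSO and 6.65, 6.43 and 6.80 under Ento+AZD in SU-DHL-4, and fell by 0.96 (adjusted p = 0.00779). Its 3 same-numbered differences, -1.02, -1.01 and -0.86, lay close together, unlike those of TYMS. In DG-75 DCTD differed by -0.20 (adjusted p = 0.591). DCK, the kinase that activates cytarabine, differed by -0.25 (adjusted p = 0.549) and -0.37 (adjusted p = 0.167) in the 2 lines, and the mitochondrial thymidine kinase TK2 by -0.16 (adjusted p = 0.753) and -0.22 (adjusted p = 0.665). Of 14 genes of nucleotide breakdown and pool cleaning 0 were called and 0 had an adjusted p under 0.05 in either line, with medians of -0.20 and -0.15.

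RRM2B is a known target of p53, so the p53 target list was read beside it. Of 8 p53 target genes, 1 was called higher under Ento+AZD in DG-75 and 0 in SU-DHL-4, where 0.125% and 0.102% of all rows were. The median log2 fold change of the 8 was 0.15 in DG-75 (range -0.40 to 1.44) and -0.01 in SU-DHL-4 (range -0.24 to 0.96). Under AZD 1 was called higher in DG-75, where 0.18% of all rows were called in either direction. TP53INP1, a stress gene, measured 6.76, 6.85 and 7.06 under DMSO in DG-75, 8.02, 7.98 and 8.33 under AZD and 8.54, 7.65 and 8.79 under Ento+AZD. It rose by 1.22 (adjusted p = 0.0487) under AZD and by 1.44 (adjusted p = 0.0162) under Ento+AZD there, and by 0.96 (adjusted p = 0.00635, under 2-fold) under Ento+AZD in SU-DHL-4. CDKN1A, which encodes the cell cycle inhibitor p21, measured 5.56, 5.32 and 6.01 under DMSO and 5.53, 5.34 and 6.03 under Ento+AZD in DG-75, a difference of 0.00 (adjusted p = 0.999), and differed by -0.24 (adjusted p = 0.57) in SU-DHL-4. RRM2B differed by 0.09 and 0.22 in the same comparisons, without passing.

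**Figure D5:**
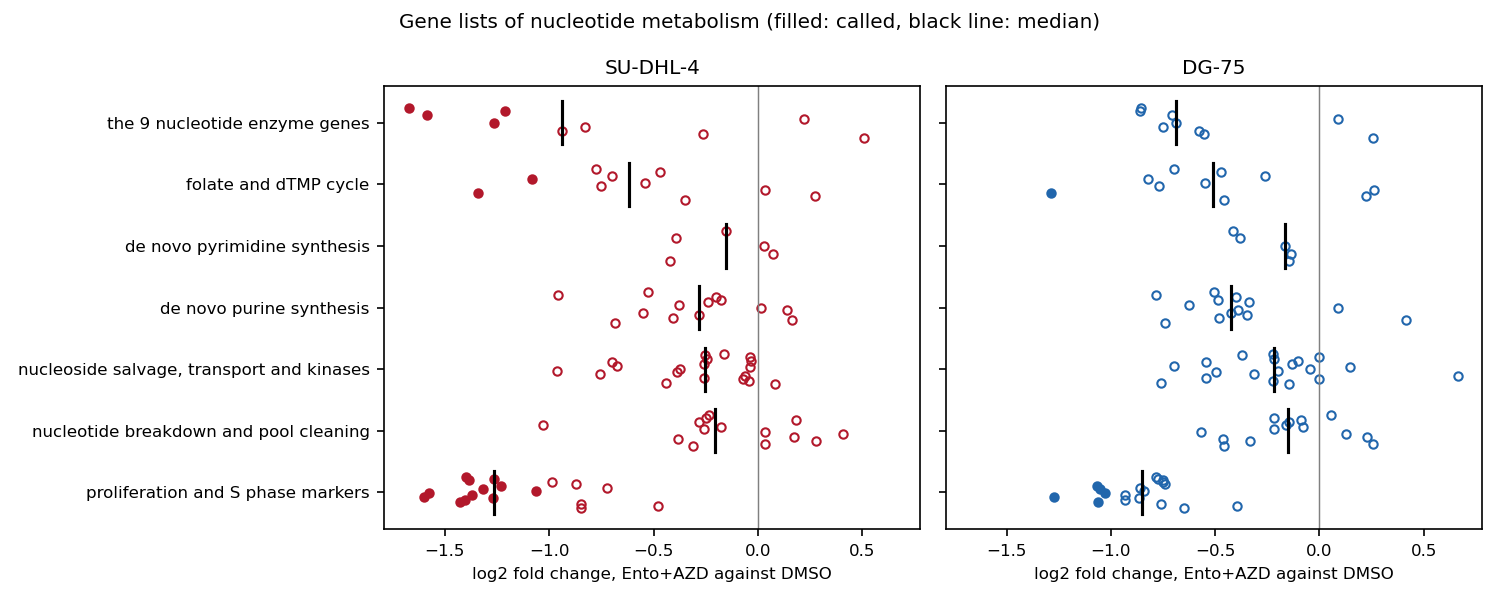
Log2 fold change between Ento+AZD and DMSO (x axis) of single genes in 7 lists in SU-DHL-4 (left) and DG-75 (right), filled where called, with a black line at the median. The 9 nucleotide enzyme genes and the proliferation markers have medians of -0.94 and -1.27 in SU-DHL-4, and the de novo pyrimidine list -0.15.

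RefSeq lists loci that may share sequence with some of these genes: 8 named as DUT pseudogenes, 3 of RRM2 and 2 of TYMS. TYMS overlaps ENOSF1 and TYMSOS, and SAMHD1 overlaps TLDC2. The deposited table gives symbols without probes, so whether a row read such a locus too was not tested.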

How the data were processed

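RNA of 24 cultures was measured on Clariom D arrays. The deposited values are log2 expression, to which the authors brought the scanned intensities by RMA (robust multi-array average). Their methods name limma and, for gene annotation, affycoretools. Annotation version and genome build are not given in the sources used here. Replicate arrays were not pooled.

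Groups and replicate numbers came from the sample labels. Differences were computed in R 4.3.3 with limma 3.58.1 on all 25575 rows, per line with 4 treatments and the replicate number as block, since the study's model has an undefined batch term. Over both lines and for differences between lines the number was nested in the line, and untreated lines were compared without it. P-values were adjusted by Benjamini-Hochberg over all rows. Overlap between groups is given as a description of single genes, and the share of all rows without overlap was not counted. Being triplicates of 1 line, the arrays measure the spread between cultures only, and 3 arrays per group limit the precision.

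The 9 members, the other gene lists and the motifs were chosen with earlier results of these data known. Every member was named. Other lists were given by their calls, naming up to 4 called genes with the smallest adjusted p per comparison, plus SHMT1, DCK, TK2, DCTD, MKI67, PCNA, MCM2, CDKN1A and a gene not reported here, and the 2 most correlated symbols of called members, SAMHD1 and RRM2B. No per-sample column was left unused. The code was tested on simulated data. Alternatives changed block, samples, filter, scaling, variance prior, fold limit and arrays.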

Additional observations from a re-analysis of the deposited data

How the results depend on the processing

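No alternative reversed the direction of a member that passed an adjusted p of 0.05. Under alternatives, 371 counts of called members stayed within 1.5 times the value reported and 22 did not. Only Ento+AZD against DMSO in SU-DHL-4 and over both lines had members called as reported. Most of the 371 are therefore counts of 0 that stayed 0, which say little about stability. Without the replicate block, the 4 calls under Ento+AZD in SU-DHL-4 became 0; no other count of members past both an adjusted p of 0.05 and a 2-fold change moved with the block. Same-numbered arrays deviated together (correlation over 0.1) in 12 of 18 pairs of SU-DHL-4 and 7 of 18 of DG-75 (range -0.355 to 0.394 over both), that is in some pairs and not in all, and no source used here says what the number marks. With single arrays or replicate numbers left out, that count ranged from 0 to 5, it ranged from 0 to 4 over both lines, where 3 were called, and from 0 to 1 between the untreated lines. With no fold change minimum and with a minimum of 1.5, Ento+AZD over both lines gave 6 and 6 members, AZD over both lines 4 and 3, Ento+AZD in DG-75 3 and 3 against DMSO and 3 and 3 against Ento, and the untreated lines 1 and 1, namely DCTPP1. Ento+AZD against Ento in SU-DHL-4, with 0 calls, gave 3 in 1 fit of all 24 arrays (TYMS, RRM2 and TK1) and 3 with a prior variance following the level. It gave 1 with all rows under the median row mean left out (TK1). Subtracting array medians moved the median of all rows by 0.13 for Ento+AZD in SU-DHL-4 and by 0.11 over both lines, with 4 and 2 members called. Quantile normalization also gave 4 and 2, and RRM1 was the call lost over both lines. Of 18 proliferation markers, a set of alternatives added after the data were seen gave 0 to 9 calls in SU-DHL-4 (12 reported) and 0 to 5 in DG-75 (5 reported). The cause of these shifts was not tested. Signal over background was not analysed here.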
